A study of Mus musculus with 2 samples.

Results

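The colony-stimulating factors and their receptors were described here in single cells from metastatic mouse lungs. The group holds 8 genes of the 27999 in the deposited matrices, chosen by name: the ligands Csf1, Il34, Csf2 and Csf3, and the receptor genes Csf1r, Csf2ra, Csf2rb and Csf3r. All 8 had at least 1 unique molecular identifier (UMI, a count of 1 captured transcript) in both libraries. Female FVB/NJ mice aged 10 weeks received the carcinoma line Met-1, which comes from a mouse mammary tumour, through the tail vein, so both lungs carried the same line. The low metastatic burden lung was taken at week 1 and the high metastatic burden lung at week 3, with 1 mouse and 1 library per group and no lung without carcinoma cells. The lungs were perfused, dissociated with enzymes and loaded on the 10x platform without a sort. Tail vein injection seeds the lung directly, so the model starts after the cells have reached the blood. Burden, time after injection, mouse and library cannot be told apart, and no test between the groups was possible. All intervals below are exact 95% intervals that cover counting error only.

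The 3 systems divide the myeloid lineage between them. CSF1 and IL-34 are separate ligands of the receptor tyrosine kinase CSF1R, which monocytes and macrophages need for survival. GM-CSF, the product of Csf2, binds the α chain encoded by Csf2ra and signals through the common β chain encoded by Csf2rb, which IL-3 and IL-5 receptors share. In the lung, alveolar macrophages depend on GM-CSF, which alveolar type 2 (AT2) cells are known to make, and on the transcription factor PPARγ downstream of it. G-CSF, the product of Csf3, acts through CSF3R on granulocytes and their precursors and is made by many carcinomas.

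The upstream sequences of a ligand and a receptor subunit with contrasting sources are shown here, Csf1 of the carcinoma and stromal cells and Csf2ra of the myeloid cells. Each is the 250 bases before the RefSeq transcription start in GRCm38.p6, on the gene's own strand: chr3:107760470-107760719, minus strand, for Csf1 and chr19:61228419-61228668, minus strand, for Csf2ra. Capitals mark matches to the Sp1 box GGGCGG or its complement CCGCCC, and to the PU.1 core GAGGAA.
Csf1: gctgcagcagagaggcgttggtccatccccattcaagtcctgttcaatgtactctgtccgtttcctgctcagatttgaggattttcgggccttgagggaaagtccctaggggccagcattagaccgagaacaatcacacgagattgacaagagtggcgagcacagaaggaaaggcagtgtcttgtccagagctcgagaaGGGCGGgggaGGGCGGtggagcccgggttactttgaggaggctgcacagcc
Csf2ra: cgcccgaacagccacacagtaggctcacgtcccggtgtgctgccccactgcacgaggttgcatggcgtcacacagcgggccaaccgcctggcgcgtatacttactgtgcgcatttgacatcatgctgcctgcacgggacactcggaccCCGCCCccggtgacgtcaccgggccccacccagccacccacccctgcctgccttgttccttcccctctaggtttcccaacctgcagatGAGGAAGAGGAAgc
The Csf1 window held 2 Sp1 boxes, and the Csf2ra window held 2 PU.1 cores side by side and 1 Sp1 box. The files' Ensembl gene models of Csf2ra and Csf3r start inside these windows, so that 1 PU.1 core of Csf2ra lies within the model and the other crosses its start. The Csf3r window held 1 PU.1 core, also within its model, and the Csf2 window 1 match to the C/EBP core TTGCNNAA and 1 Sp1 box. The AP-1 motif TGANTCA matched in none of these 4 windows. Both strands were searched, and GAGGAA was present in 23.3% of the 32851 RefSeq windows of this length, GGGCGG in 32.7%, TTGCNNAA in 9.56% and TGANTCA in 6.75%. A match is a description of these letters and not a binding site.

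The high library was the deeper one, with a median of 13998 UMIs per kept cell against 4073 in the low library, and 3033 kept cells against 2473. The barcode lists shared 11 sequences. Cells were classed by gates on fixed marker genes, none of which is a colony-stimulating factor or a receptor, and 9.99% of the low and 16.4% of the high cells passed no gate. Classes are named as "-like" because no annotation was used, and every class with 20 or more cells had at least 1 of its own markers among its 10 leading genes and more of its own than of any other class. Alveolar macrophage-like cells numbered 412 in the low and 3 in the high library. C1q macrophage-like cells, gated on the complement C1q genes and related macrophage markers, numbered 44 and 715. Monocyte-like cells of both gates numbered 104 and 19, and metastatic cell-like cells 0 and 1192. Shares of a dissociated sample also reflect which cells survive dissociation. Levels are given as CPM, the UMIs of a gene, or of a marker list, per 1000000 UMIs of the class. The neutrophil-like gate held 17 and 32 cells, and its label was weak. The neutrophil markers Ly6g, Camp and Ngp were at 0 UMIs in the low cells and at 6, 12 and 4 UMIs in the high cells. The other listed neutrophil markers had UMIs in the low cells, with S100a8 at 5978, S100a9 at 4414, Mmp9 at 388 and Cxcr2 at 109 CPM. The high cells had 5008 CPM of C1q macrophage markers and 867 CPM of metastatic cell markers.

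**Figure D1:**
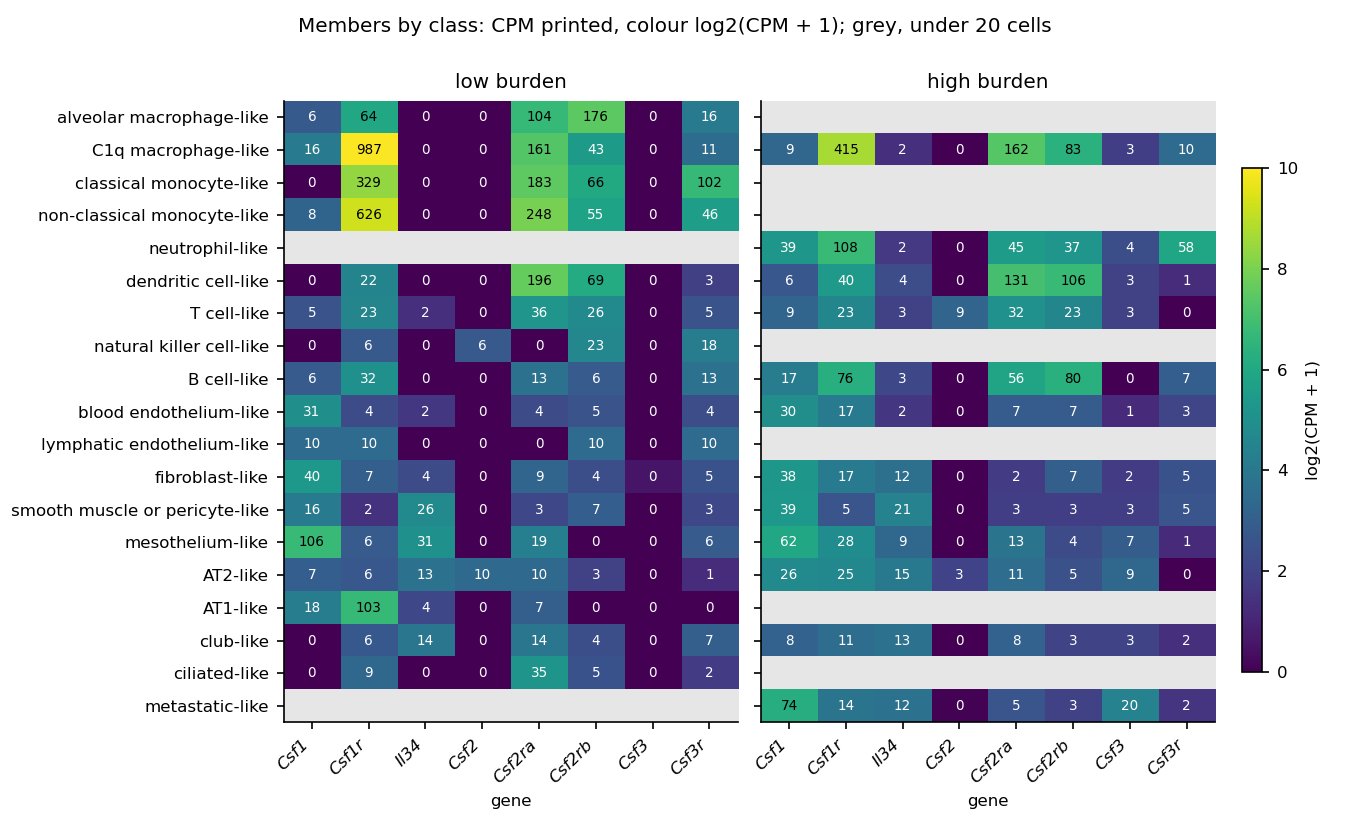
Level of each of the 8 genes (CPM in each cell, colour as log2(CPM + 1)) in the cell classes with at least 20 cells, for the low and high burden libraries. Csf1, Il34 and Csf3 are strongest outside the myeloid classes, Csf1r, Csf2ra and Csf2rb within them, with Csf1r also at 103 CPM in AT1-like cells of the low library, and Csf2 is near 0 throughout.

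Csf1, the main ligand of CSF1R, was found in stromal classes of the low lung and in the carcinoma cells of the high lung. In the low library, mesothelium-like cells had the highest Csf1 level, at 106 CPM [61.7-170] from 17 UMIs. Fibroblast-like cells followed at 39.6 CPM [31.5-49.1] and blood endothelium-like cells at 30.9 CPM [24.8-38.0]. The intervals of fibroblast-like and endothelium-like cells overlapped, so the order of these neighbours was not resolved, whereas the mesothelium-like interval lay above both. In the high library, metastatic cell-like cells had 2176 Csf1 UMIs, a level of 74.0 CPM [70.9-77.2], and mesothelium-like cells 61.8 CPM [45.3-82.5], which overlapped it. Csf1 was present in 855 of the 1192 metastatic cell-like cells at full depth (median 22988 UMIs) and in 20.9% [18.6-23.3] once each cell was thinned to 3000 UMIs. T cell-like cells, given for comparison, had a Csf1 UMI in 2.17% of thinned low cells and 0 of 39 thinned high cells, which allows up to 9.03%. Their median depths were 3300 and 7449 UMIs.

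Csf1 differed little between the libraries within the 2 stromal classes that held most of it in the low lung. Fibroblast-like cells had 39.6 CPM in the low and 37.9 CPM in the high library, a log2 ratio of high over low of -0.06 [-0.93 to 0.72]. Blood endothelium-like cells had 30.9 and 29.8 CPM, a log2 ratio of -0.05 [-0.60 to 0.48]. These intervals leave room for differences of up to about 2-fold in fibroblast-like cells. Mesothelium-like cells had 106 CPM in the low and 61.8 CPM in the high library, a log2 ratio of -0.78 [-1.61 to 0.12] whose interval included 0. Smooth muscle or pericyte-like cells had 15.7 and 38.8 CPM, a log2 ratio of 1.30 [0.02 to 2.68] from 9 and 15 UMIs. Metastatic cell markers stood at 8.74 CPM with 3 of 10 seen in the low cells of that class and at 422 CPM with 9 of 10 seen in the high ones, where Csf1 was at 9.20 UMIs [5.15-15.2] per 100 marker UMIs, and their part in this ratio was not tested.

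AT2-like cells had 6.97 CPM of Csf1 in the low and 26.2 CPM in the high library, a log2 ratio of 1.91 [0.41 to 3.70] from 5 and 17 UMIs. The 17 UMIs of the high library were in 9 of 69 cells, and 1 cell held 6 of them. Markers of metastatic cells moved with this value. All 10 metastatic cell markers had UMIs in the high AT2-like cells, together 425 CPM, against 2.79 CPM and 2 of 10 markers in the low ones. Csf1 stood at 6.16 UMIs [3.59-9.86] per 100 metastatic marker UMIs in these AT2-like cells and at 4.40 [4.21-4.59] in the metastatic cell-like class itself. The C1q macrophage-like cells of the high library gave 5.52 [4.31-6.96] by the same measure, and T cell-like cells 5.08 [1.05-14.9]. Endothelium-like cells stood at 16.7 [12.2-22.3], fibroblast-like cells at 18.4 [10.5-29.9] and mesothelium-like cells at 36.5 [26.7-48.7], above the ratio of the metastatic class. Csf1 in the high AT2-like and C1q macrophage-like cells was therefore in nearly the ratio to metastatic markers that the metastatic class has, and in the 3 stromal classes it was not. Whether metastatic cell RNA contributed to any of these values was not tested.

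**Figure D2:**
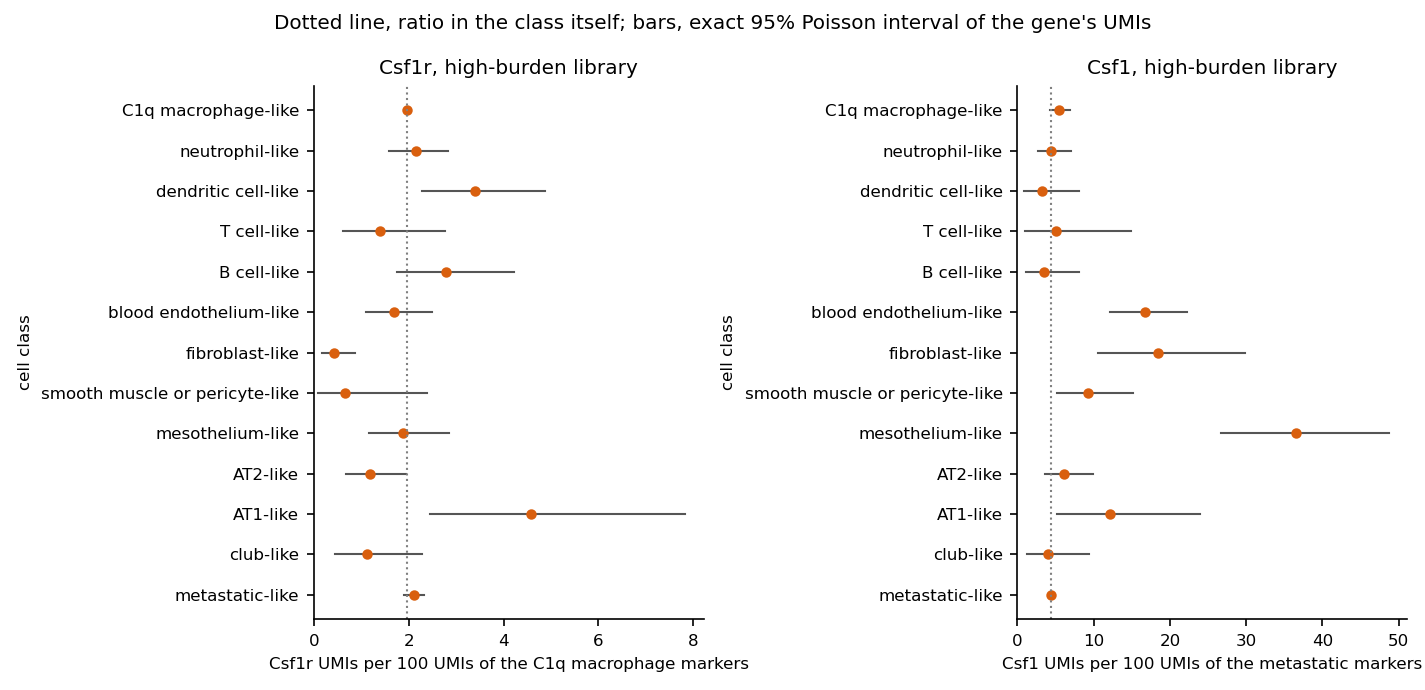
UMIs of Csf1r per 100 UMIs of the C1q macrophage markers, and of Csf1 per 100 UMIs of the metastatic cell markers, in classes of the high burden library, with exact 95% counting intervals. The dotted lines mark the ratio in the class that the markers define. For Csf1, the endothelium-like, fibroblast-like and mesothelium-like classes lie above the metastatic class at 4.40, and AT2-like cells at 6.16 overlap it.

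Within the metastatic cell-like class, Csf1 was spread broadly. The 120 cells with most Csf1 held 34.5% of its UMIs, and the cell with most held 16 UMIs. Cells with cell cycle markers (950 cells) had 73.8 CPM and the other 242 cells 75.2 CPM. The 3 large clusters of the class had 75.0, 62.2 and 87.6 CPM, and the intervals of the last 2 did not overlap, at [57.4-67.3] and [81.0-94.5]. The clusters were made from the same cells, so this is a description.

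Il34, the second ligand of CSF1R and best known from skin and brain, was sparse in both lungs. The low library held 67 Il34 UMIs over all classes, and the levels were highest in mesothelium-like cells at 31.2 CPM [10.1-72.7], smooth muscle or pericyte-like cells at 26.2 CPM [14.7-43.2], club-like cells at 14.2 CPM [6.78-26.0] and AT2-like cells at 12.6 CPM [5.74-23.8]. These intervals overlapped, so no order among the 4 classes was resolved. Alveolar macrophage-like and monocyte-like cells had 0 Il34 UMIs in both libraries. In the high library, smooth muscle or pericyte-like cells had 20.7 CPM, AT2-like cells 15.4 CPM, club-like cells 12.6 CPM and metastatic cell-like cells 12.5 CPM [11.2-13.8]. The metastatic cell-like value came from 366 UMIs in 289 of 1192 cells, none with more than 4 UMIs. The smooth muscle or pericyte-like class was the only one outside the metastatic and ungated cells with 20 or more Il34 UMIs over both libraries, and its log2 ratio was -0.34 [-1.79 to 0.99].

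Csf1r, the receptor of both ligands, marked macrophage-like and monocyte-like cells. In the low library it stood at 987 CPM [850-1141] in C1q macrophage-like cells, 626 CPM [530-735] in non-classical monocyte-like cells and 329 CPM [240-441] in classical monocyte-like cells, 3 levels whose intervals did not overlap. Alveolar macrophage-like cells had only 63.5 CPM [51.3-77.8], and 15.1% of their thinned cells had a UMI against 6.52% of thinned T cell-like cells. The low neutrophil-like gate gave 315 CPM, but 20 of its 26 UMIs were in 1 cell.

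In C1q macrophage-like cells Csf1r was lower in the high lung, at 415 CPM [402-430] from 3355 UMIs, against 987 CPM from 184 UMIs in the low lung. The log2 ratio was -1.25 [-1.46 to -1.03], or 2.38-fold lower. Thinned to 3000 UMIs, 94.4% [81.3-99.3] of the low and 67.8% [64.3-71.3] of the high cells had a Csf1r UMI. The median cell held 4 Csf1r UMIs in both libraries, at median depths of 3906 and 10494 UMIs. Different clusters made up the class in each library: 37 of the 44 low cells lay in a cluster at 1044 CPM, and 107, 261 and 311 of the high cells lay in 3 others at 231, 438 and 466 CPM. The C1q macrophage list that gates the class stood at 46584 CPM in the low and 21201 CPM in the high cells, so that Csf1r made up 2.12 UMIs [1.82-2.45] per 100 marker UMIs in the low and 1.96 [1.89-2.03] in the high cells. Apoe, the apolipoprotein E gene and the most abundant of these markers, went from 27086 to 6391 CPM, whereas C1qc stood at 3611 and 3684 CPM. Without Apoe, a choice made after seeing the data, Csf1r was at 5.06 [4.36-5.85] per 100 marker UMIs in the low and 2.81 [2.71-2.90] in the high cells, so it was also lower relative to the other markers. High cells with the arginase gene Arg1, a marker of suppressive macrophages, had 317 CPM (92 cells) and those without it 432 CPM (623 cells).

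Of the 6 members with 20 or more UMIs in C1q macrophage-like cells, Csf1r was past 2-fold downward. Csf3 met the upward rule only because the 44 low cells had 0 UMIs, against 21 UMIs in the high cells, and no fold is given for it. Past 2-fold either way were 41.3% of all genes with as many UMIs in this class, with 25.2% upward and 16.1% downward, and 1520 of the 2648 genes counted as higher were likewise at 0 in the low cells. A ratio past 2-fold was thus common in this class. Csf2ra, Csf2rb, Csf1 and Csf3r lay between the limits.

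Monocyte-like cells showed lower Csf1r in the high lung as well, at 97.2 CPM from 15 UMIs in 19 cells against 518 CPM from 194 UMIs in 104 cells. The log2 ratio was -2.41 [-3.28 to -1.66]. Of 4 members tested in this class, Csf1r, Csf2ra and Csf3r were past 2-fold downward and Csf2rb was not past it, where 31.9% of all genes tested were past 2-fold in either direction. The makeup of the class differed too: 68 of the 104 low cells but 3 of the 19 high cells were non-classical. Within the classical gate, Csf1r was 329 CPM in the low and 110 CPM in the high library, a log2 ratio of -1.58 [-2.53 to -0.71]. With classes drawn from clusters in place of gates, the log2 ratio of the monocyte-like class was -1.10.

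Csf1r was also present in AT1-like cells, the flat cells of the alveolar surface, in both libraries. It stood at 103 CPM [69.0-148] in the low and 75.8 CPM [40.4-130] in the high library, in 24 of 50 and 9 of 18 cells, with at most 3 UMIs in a cell. Thinned shares were 38.9% in both, against 6.52% and 7.69% in T cell-like cells and 1.77% and 7.25% in AT2-like cells. The log2 ratio between the libraries was -0.44 [-1.51 to 0.55]. Defining macrophage genes were near 0 in the low AT1-like cells: C1qa and C1qb had 1 UMI each and C1qc 2, and Csf1r stood at 16.9 UMIs [11.3-24.2] per 100 C1q macrophage marker UMIs, against 2.12 in the C1q macrophage-like class and 7.27 [5.86-8.90] in alveolar macrophage-like cells. Non-classical monocyte-like cells had a higher ratio still, 21.0 [17.8-24.6]. Tyrobp, an adaptor of myeloid cells, stood at 135 CPM in the low AT1-like cells and at 317 CPM in T cell-like cells. Spi1, which encodes PU.1, stood at 28.4 and 50.4 CPM. In low AT2-like, endothelium-like, fibroblast-like and club-like cells, Tyrobp was at 94.8, 77.1, 76.8 and 163 CPM. Spi1 was at 9.76, 9.72, 13.8 and 25.5 CPM in the same classes. In the high AT1-like cells the C1q markers were not near 0, with C1qa at 257 CPM, and Csf1r stood at 4.58 [2.44-7.83] per 100 marker UMIs. The gene Hmgxb3 overlaps Csf1r on the opposite strand. It had 5 UMIs in the low AT1-like cells, all in cells with a Csf1r UMI, and 0 in the high ones, and how the counting treated strand is not given in the sources used here. AT1-like cells were gated on other genes, and Ager, which defines AT1 cells, stood at 21065 CPM in the low class. The part of monocyte or macrophage RNA in the Csf1r of AT1-like cells was not tested.

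In 4 stromal or epithelial classes, Csf1r was low and its level was higher in the high library, in 2 of them with an interval that included 0. T cell-like cells had 22.7 and 23.2 CPM, and B cell-like cells 31.8 and 76.4 CPM. The B cell-like log2 ratio was 1.26 [-0.17 to 3.02] from 5 and 22 UMIs, with an interval that included 0. The share of all genes past 2-fold was not taken for that class. Endothelium-like cells had 3.82 CPM in the low and 16.6 CPM in the high library, a log2 ratio of 2.12 [1.04 to 3.29]. AT2-like cells had 5.58 and 24.7 CPM, a log2 ratio of 2.15 [0.51 to 4.18]. Mesothelium-like cells had 6.23 and 28.2 CPM and fibroblast-like cells 7.15 and 16.6 CPM, with log2 ratios of 2.18 [-0.46 to 7.55] and 1.21 [-0.32 to 2.60] whose intervals included 0. These 4 stromal or epithelial values counted as past 2-fold. The members past 2-fold were 1 of 4 tested in endothelium-like cells, 1 of 2 in fibroblast-like cells, 1 of 2 in mesothelium-like cells and 2 of 2 in AT2-like cells. Among all genes tested the share was 9.96% in endothelium-like, 14.9% in fibroblast-like, 24.8% in mesothelium-like and 14.3% in AT2-like cells.

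The C1q macrophage list was higher in the high library in endothelium-like cells (640 and 984 CPM) and AT2-like cells (1048 and 2069 CPM) and lower in mesothelium-like cells (2567 and 1511 CPM) and fibroblast-like cells (4189 and 3933 CPM). Without Apoe it was higher in all 4, at 117 and 422 CPM in endothelium-like, 116 and 879 CPM in AT2-like, 68.5 and 515 CPM in mesothelium-like and 90.6 and 697 CPM in fibroblast-like cells. Per 100 marker UMIs of the high library, Csf1r stood at 1.68 [1.09-2.48] in endothelium-like, 1.87 [1.16-2.86] in mesothelium-like, 1.19 [0.68-1.94] in AT2-like and 2.10 [1.90-2.32] in metastatic cell-like cells, against 1.96 [1.89-2.03] in the C1q macrophage-like class. All 10 markers had UMIs in each of these 4 classes. Fibroblast-like cells had 0.422 [0.170-0.869]. Without Apoe, Csf1r stood at 3.92 [2.54-5.78] in endothelium-like, 5.48 [3.39-8.38] in mesothelium-like, 2.81 [1.60-4.56] in AT2-like, 2.38 [0.96-4.91] in fibroblast-like and 3.72 [3.36-4.10] in metastatic cell-like cells, against 2.81 [2.71-2.90] in the macrophage class. The mesothelium-like and metastatic cell-like intervals then lay above that of the macrophage class, so how near the ratios are depends on Apoe. The metastatic cell-like level was 13.5 CPM from 398 UMIs. The part of macrophage RNA in these values was not tested.

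**Figure D3:**
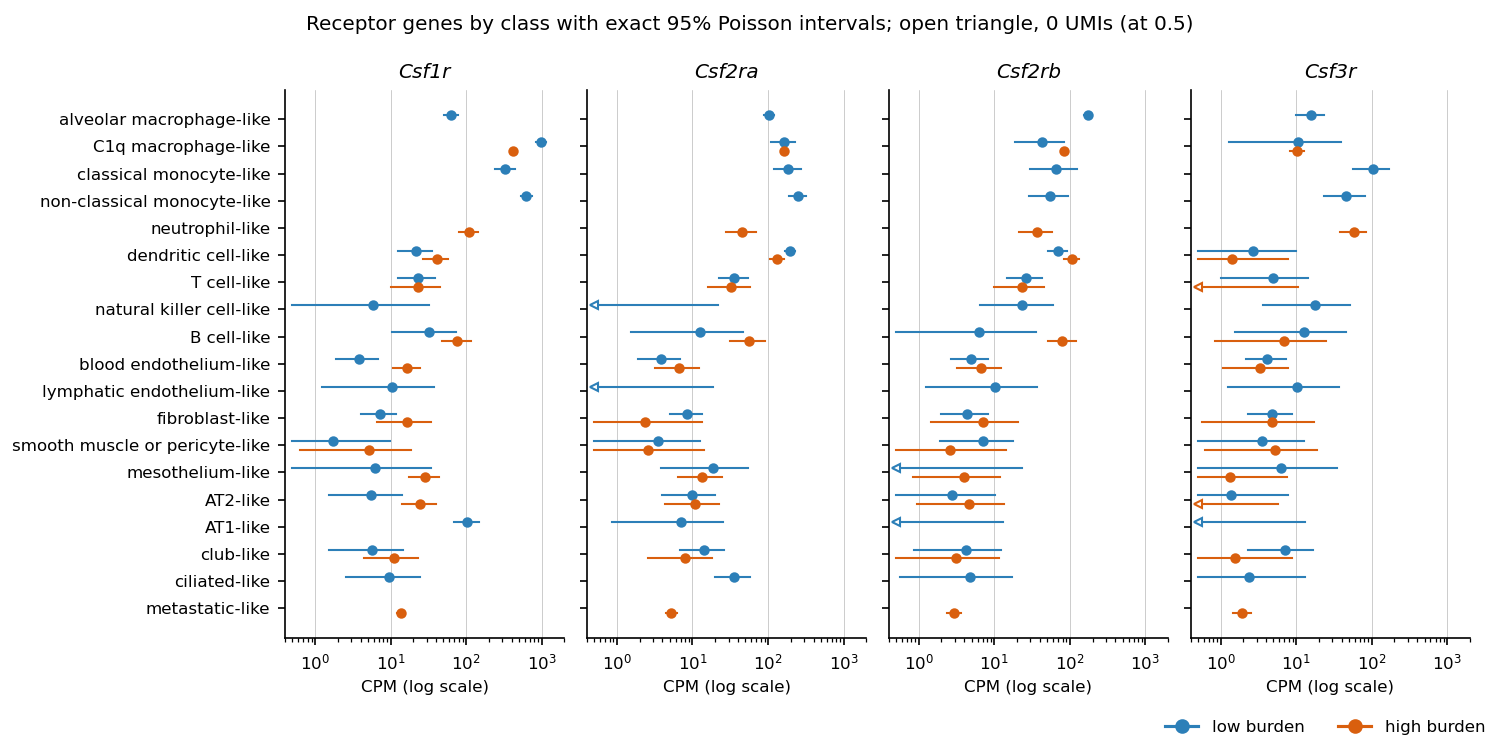
Levels (CPM) of the receptor genes Csf1r, Csf2ra, Csf2rb and Csf3r in the classes with at least 20 cells of the low and high burden libraries, with exact 95% counting intervals on a log axis. Open triangles are classes with 0 UMIs. In C1q macrophage-like cells Csf1r is at 987 CPM in the low and 415 CPM in the high library, and Csf2ra at 161 and 162 CPM.

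Csf2, the gene of GM-CSF, was close to the limit of detection. The low library held 10 UMIs in 10 cells, 7 of them in 7 AT2-like cells, 1 in a natural killer cell-like cell and 2 in ungated cells. The high library held 6 UMIs in 4 cells: 3 in 1 T cell-like cell, 2 in 2 AT2-like cells and 1 in a metastatic cell-like cell. AT2-like cells were thus the class with most Csf2 UMIs in the low lung, at 9.76 CPM [3.92-20.1], and stood at 3.08 CPM [0.37-11.1] in the high lung, with overlapping intervals. All 412 alveolar macrophage-like cells and all fibroblast-like and endothelium-like cells had 0 Csf2 UMIs. Over all cells Csf2 was at 0.753 CPM in the low and 0.117 CPM in the high library, too few UMIs for the rule on folds.

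Csf2ra, the GM-CSF receptor α chain, was spread across the myeloid classes. In the low library it stood at 248 CPM [189-320] in non-classical monocyte-like, 196 CPM [165-231] in dendritic cell-like, 183 CPM [118-270] in classical monocyte-like, 161 CPM [109-230] in C1q macrophage-like and 104 CPM [88.0-122] in alveolar macrophage-like cells. Neighbours in this order had overlapping intervals, and the alveolar macrophage-like level lay below those of the non-classical monocyte-like and dendritic cell-like cells. In C1q macrophage-like cells Csf2ra was 161 CPM in the low and 162 CPM in the high library, a log2 ratio of 0.01 [-0.51 to 0.58], in contrast to Csf1r in the same cells, whose interval of -1.46 to -1.03 did not overlap it. Dendritic cell-like cells had 196 and 131 CPM, a log2 ratio of -0.58 [-0.97 to -0.19]. Monocyte-like cells had 224 and 90.7 CPM, a log2 ratio of -1.31 [-2.24 to -0.48], which was -0.40 with classes drawn from clusters. Ciliated-like cells, which are not myeloid, had Csf2ra at 35.4 CPM [19.8-58.3] from 15 UMIs in 57 low cells and at 29.2 CPM [11.8-60.2] in the high library. T cell-like cells had 35.7 and 31.9 CPM. Other non-myeloid classes of the low library had less, with mesothelium-like cells at 18.7, club-like at 14.2, AT2-like at 9.76 and fibroblast-like at 8.58 CPM.

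Csf2rb, the common β chain, was highest in alveolar macrophage-like cells among the larger classes. The 412 low cells had 257 UMIs, a level of 176 CPM [155-198], and 41.6% [35.4-48.1] of their thinned cells had a UMI. The interval lay above those of dendritic cell-like cells at 69.4 CPM [51.7-91.3], non-classical monocyte-like cells at 54.6 CPM [29.1-93.4] and C1q macrophage-like cells at 42.9 CPM [18.5-84.6]. Among gates of fewer than 20 cells, the 17 neutrophil-like cells were near the alveolar macrophage-like level, at 170 CPM [92.8-285]. The 2 basophil or mast cell-like cells lay above it, at 986 CPM from 6 UMIs. T cell-like cells stood at 26.0 CPM and had a UMI in 6.52% of thinned cells. The α and β chains thus ranked differently: alveolar macrophage-like cells lay below non-classical monocyte-like and dendritic cell-like cells for Csf2ra and above both for Csf2rb. The 3 alveolar macrophage-like cells of the high library had 2 UMIs of Csf2ra, 2 of Csf1r and 0 of Csf2rb in 17796 UMIs, too few for a level.

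In C1q macrophage-like cells Csf2rb stood at 42.9 CPM from 8 UMIs in the low and 82.6 CPM [76.5-89.1] from 667 UMIs in the high library. The log2 ratio was 0.94 [-0.04 to 2.16], with an interval that included 0, and 8.33% of low and 21.3% of high thinned cells had a UMI. Dendritic cell-like cells had 69.4 and 106 CPM, a log2 ratio of 0.61 [0.08 to 1.15], where Csf2ra was lower in the high library. None of the 3 members tested in dendritic cell-like cells was past 2-fold, against 14.3% of all genes tested. Csf1r was 21.8 and 40.5 CPM there. B cell-like cells had 1 Csf2rb UMI in the low and 23 in the high library, or 6.37 and 79.8 CPM. That log2 ratio of 3.65 [1.03 to 9.01] was 0.68 with classes drawn from clusters. The C1q macrophage markers stood at 529 CPM with 4 of 10 seen in the low and at 2735 CPM with 9 of 10 seen in the high B cell-like cells, and their part in this ratio was not tested.

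Both chains are needed for a functional GM-CSF receptor, so their joint detection was counted at equal depth. Among cells thinned to 3000 UMIs, 28 of 245 alveolar macrophage-like cells of the low lung had a UMI of both chains, or 11.4% [7.73-16.1], and 60 of 715 C1q macrophage-like cells of the high lung, or 8.39% [6.47-10.7]. The products of the separate shares were 10.0% and 8.41%, so joint detection was near what the separate shares give. In the 36 thinned C1q macrophage-like cells of the low lung no cell had both, with an upper limit of 9.74%. T cell-like cells had 2.17% and 2.56%, and none of 1192 metastatic cell-like cells had both, with an upper limit of 0.309%. Of the thinned C1q macrophage-like cells, 30.6% of the low and 26.1% of the high ones had both Csf1r and Csf2ra.

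Csf2rb has a neighbouring paralog, Csf2rb2, of near-identical sequence, so reads could be assigned to either and both levels are uncertain. Csf2rb2, which serves the IL-3 receptor of mice, stood at 38.2 CPM in alveolar macrophage-like cells and at 16.1 and 15.5 CPM in the low and high C1q macrophage-like cells. Of its UMIs, 54.9% in the low library came from alveolar macrophage-like cells, beside 54.2% for Csf2rb.

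Csf3, the gene of G-CSF, was a transcript of the high library. The low library held 1 UMI, in a fibroblast-like cell, and the high library 733 UMIs. Metastatic cell-like cells held 602 of these, a level of 20.5 CPM [18.9-22.2], in 192 of 1192 cells. Expression was uneven between cells: 1 cell held 110 UMIs, 18.3% of the class total, and the 120 cells with most held 88.0%, against 34.5% for Csf1 and 53.8% for Il34. Without the cell with most UMIs the level was 16.7 CPM. Cluster levels were 31.4 [28.1-34.9], 12.3 [10.3-14.7] and 16.7 CPM [13.9-19.9], and cycling cells had 21.3 CPM against 15.3 CPM in the others. Csf1 and Csf3 were detected together in 0.755% of thinned metastatic cell-like cells, near the 0.806% that the product of their shares gives.

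Outside the metastatic class, Csf3 in the high library was sparse. C1q macrophage-like cells had 21 UMIs, AT2-like cells 6 UMIs in 3 cells and mesothelium-like cells 5. Per 100 metastatic cell marker UMIs these were 1.63 [1.01-2.49], 2.17 [0.80-4.73] and 3.97 [1.29-9.26], beside 1.22 [1.12-1.32] in the metastatic class. All 3 intervals overlapped that of the metastatic class. The part of metastatic cell RNA was not tested.

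Csf3r, the G-CSF receptor, was highest in the neutrophil-like gate, at 230 CPM [139-360] from 19 UMIs in the low and 58.1 CPM [38.3-84.5] from 27 UMIs in the high library. The weak labelling of that gate, given above, stands beside this difference. Classical monocyte-like cells had 102 CPM [56.0-172] in the low library and 1 UMI in the high library, and non-classical monocyte-like cells 46.2 CPM [23.1-82.7] in the low library. Over both monocyte gates the levels were 66.7 and 6.48 CPM, a log2 ratio of -3.37 [-8.72 to -0.75] that rests on 1 UMI in the high library. Alveolar macrophage-like cells had 15.7 CPM [9.96-23.6], and C1q macrophage-like cells 10.7 CPM from 2 UMIs in the low and 10.4 CPM from 84 UMIs in the high library, a log2 ratio of -0.04 [-1.94 to 3.02]. T cell-like cells had 4.87 CPM and 0 UMIs. Metastatic cell-like cells had 1.94 CPM of Csf3r, so the class with most Csf3 had little of its receptor.

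**Figure D4:**
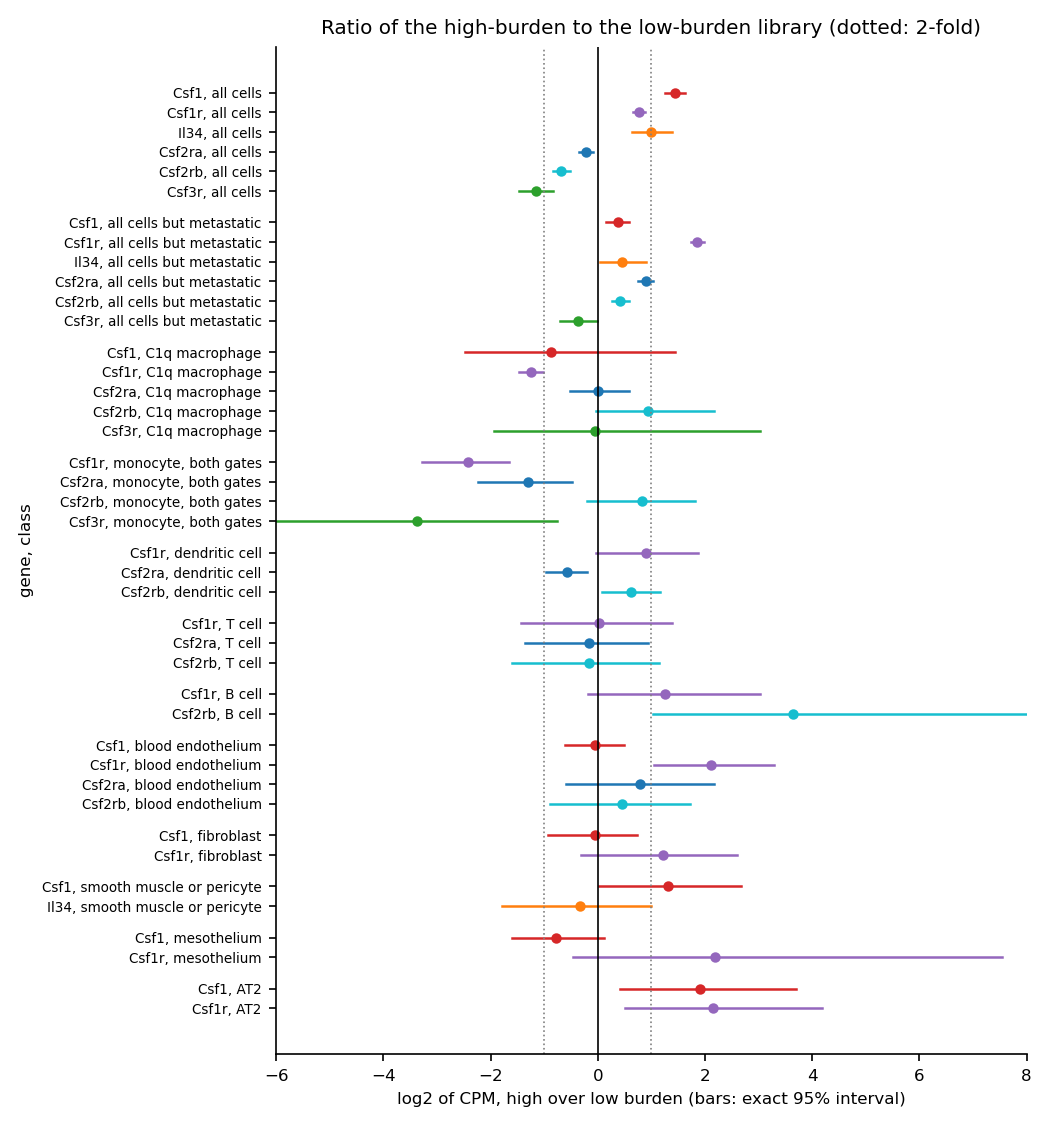
Log2 ratio of high over low CPM for the members with at least 20 UMIs over both libraries, with exact 95% counting intervals. The dotted lines mark 2-fold, and Csf3 is not drawn. Csf1r lies at -1.25 in C1q macrophage-like and -2.41 in monocyte-like cells and above 1 in B cell-like, blood endothelium-like, fibroblast-like, mesothelium-like and AT2-like cells.

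Summed over all kept cells, the totals reflect the makeup of each library. Csf1 stood at 19.7 CPM in the low and 53.2 CPM in the high library, a log2 ratio of 1.44 [1.25 to 1.63], and Csf3 at 0.0753 and 14.2 CPM, a log2 ratio of 7.56 [5.08 to 12.9] that rests on 1 UMI in the low library. Csf3r was 9.64 and 4.31 CPM, a log2 ratio of -1.16 [-1.48 to -0.83]. Of 7 members tested over all cells, Csf1 and Csf3 were past 2-fold upward and Csf3r downward, where 41.4% of all genes were past 2-fold in either direction. Il34, at 5.04 and 10.1 CPM, lay just inside the limit, at 1.00 [0.63 to 1.39]. In such totals, fewer cells of a type and less RNA of the gene per cell cannot be told apart.

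Leaving out the metastatic cell-like class turned the totals of Csf2ra and Csf2rb, but not those of Csf1r and Csf3r. Csf2ra was 45.7 CPM in the low and 39.3 CPM in the high library over all cells, a log2 ratio of -0.22 [-0.35 to -0.08], and 84.7 CPM in the high library without that class, a log2 ratio of 0.89 [0.76 to 1.03]. Csf2rb went from -0.69 [-0.84 to -0.53] to 0.42 [0.26 to 0.58] in the same way, with high levels of 22.2 and 47.8 CPM against 35.7 CPM in the low library. Csf1r went from 0.77 to 1.86, with high levels of 89.0 and 190 CPM against 52.3 CPM. Csf3r stayed lower in the high library, going from -1.16 to -0.37 [-0.71 to -0.02]. Csf1 went from 1.44 to 0.37 [0.16 to 0.59] and Csf3 from 7.56 to 6.30 [3.80 to 11.6]. Of the 7 members tested without that class, Csf1r and Csf3 were past 2-fold, both upward, where 31.3% of all genes were. The median gene lay at -0.34 over all cells and -0.31 without the metastatic class, so the ratios of the members stand that much higher relative to it. With median-of-ratios scaling the ratio of Csf2ra over all cells was 0.12, on the other side of 0.

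The source of each member's UMIs moved with the cell classes. Alveolar macrophage-like cells, 16.7% of the low cells and 11.0% of the low UMIs, gave 54.2% [49.6-58.8] of the Csf2rb UMIs of the low library, 25.0% of Csf2ra and 13.4% of Csf1r. C1q macrophage-like cells gave 26.5% of the low Csf1r UMIs and non-classical monocyte-like cells 21.4%. In the high library, C1q macrophage-like cells, 23.6% of cells and 15.7% of UMIs, gave 73.3% [72.0-74.5] of Csf1r, 64.7% of Csf2ra, 58.4% of Csf2rb and 37.8% of Csf3r. The main source of the β chain was thus the alveolar macrophage-like class at week 1 and the C1q macrophage-like class at week 3. For the ligands, endothelium-like cells gave 34.1% and fibroblast-like cells 31.8% of the low Csf1 UMIs. Metastatic cell-like cells, 39.3% of the high cells and 57.1% of the high UMIs, gave 79.5% [78.0-81.0] of Csf1, 82.1% [79.2-84.8] of Csf3 and 70.5% [66.4-74.4] of Il34.

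**Figure D5:**
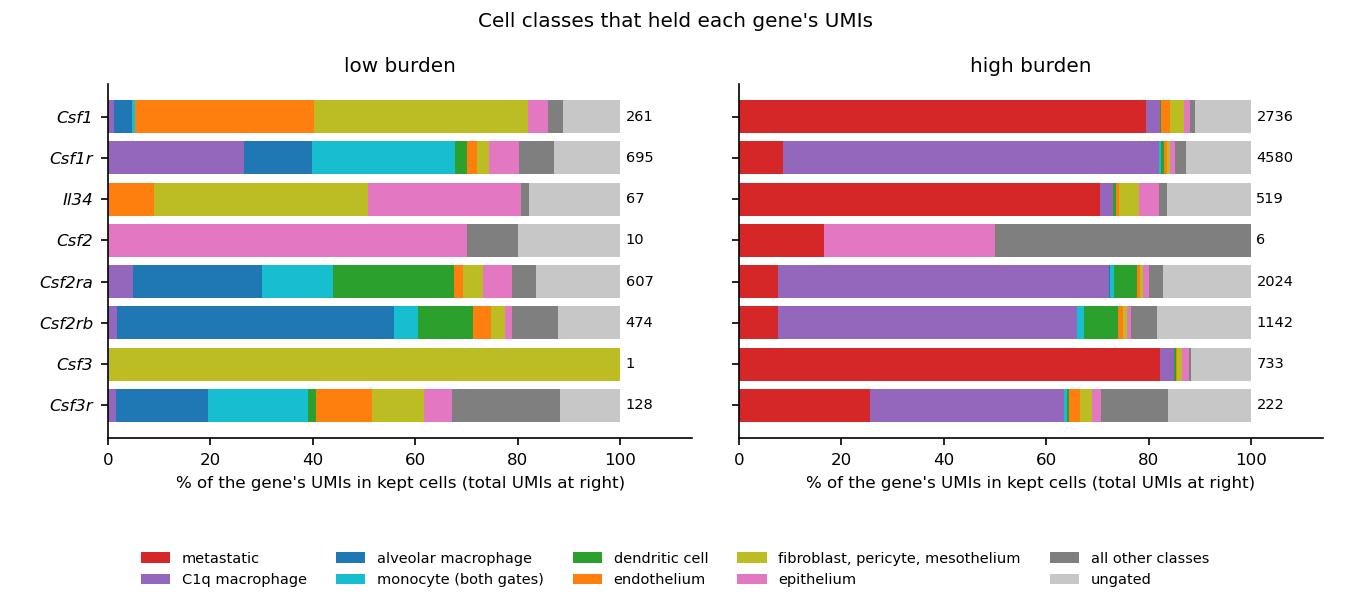
Share of each gene's UMIs (percent) that came from each cell class in the low and high burden libraries. Alveolar macrophage-like cells gave 54.2% of Csf2rb in the low library, and in the high library metastatic cell-like cells gave 79.5% of Csf1 and C1q macrophage-like cells 73.3% of Csf1r.

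The pathway genes around these receptors were read in C1q macrophage-like cells, where the median gene with 20 or more UMIs lay at -0.13 (-0.27 with genes at 0 UMIs set to the floor). Of all genes tested there, 25.2% were past 2-fold upward and 16.1% downward. Of 16 genes of CSF1R signalling and myeloid transcription factors, 0 were past 2-fold upward and 4 downward, with a list median of -0.01. Among these were the transcription factor genes Runx1 at -1.90 [-2.39 to -1.37], Cebpa at -1.65 [-2.16 to -1.09] and Maf at -1.16 [-1.57 to -0.71]. Spi1, whose product PU.1 activates Csf1r, stood at 402 CPM in the low and 422 CPM in the high cells. Mitf, a transcription factor gene, stood at 10.7 and 16.0 CPM.

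Of 12 tested genes of GM-CSF signalling and the alveolar macrophage programme, 3 counted as past 2-fold upward, 1 of them with 0 UMIs in the low cells and no fold, and 5 were past 2-fold downward in the same cells, beside 25.2% and 16.1% of all genes tested there, with a list median of -0.38 (-0.80 with genes at 0 UMIs set to the floor of 3 UMIs). The fatty acid binding protein gene Fabp5 was 69.8 and 424 CPM, a log2 ratio of 2.60 [1.83 to 3.51]. Bhlhe40, a transcription factor gene, was at 2.68 [0.19 to 7.99] from 1 UMI in the low cells. Cish, a feedback inhibitor gene downstream of STAT5, had 0 and 44 UMIs, for which no fold is given. Lowest were the transcription factor genes Klf4 at -2.69 [-2.99 to -2.37] and Bach2 at -2.16 [-3.85 to 0.19], and Car4, Abcg1 and Cd36 were also past 2-fold downward. Car4 was 75.1 and 21.55 CPM in C1q macrophage-like cells and 117 and 34.8 CPM in T cell-like cells. Abcg1 was 69.8 and 20.7 CPM in the former and 55.2 and 2.90 CPM in the latter. Both genes were thus also lower in the high T cell-like cells, and the part of RNA from other cells was not tested. Pparg, which specifies alveolar macrophages, was 48.5 CPM [37.9-61.2] in the low alveolar macrophage-like cells and 2.23 CPM in the high C1q macrophage-like cells. The low C1q macrophage-like cells had 5.37 CPM from 1 UMI. Low non-classical monocyte-like cells had 37.8 CPM [17.3-71.8], which overlapped the alveolar macrophage-like level.

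Of 7 tested genes of G-CSF signalling and the granulocyte programme, 1 was past 2-fold, the chemokine receptor gene Cxcr4 at -3.56 [-4.06 to -3.02]. The list median was -0.37, and 16.1% of all genes tested in C1q macrophage-like cells were past 2-fold downward. Cebpb was next lowest at -0.96. The calprotectin genes S100a9 and S100a8 were highest, at 0.52 [-0.33 to 1.53] and 0.36 [-0.35 to 1.17], intervals that included 0. S100a9 was 59.0 and 84.5 CPM there and 53.6 and 87.0 CPM in T cell-like cells. S100a8 was 85.85 and 110 CPM there and 60.1 and 104 CPM in T cell-like cells. Cebpd, a listed gene, was not analysed here. Of the cytokines known to induce these ligands, 5 of 5 tested counted as past 2-fold upward, where 25.2% of all genes tested counted so, with a list median of 2.26. With genes at 0 UMIs set to the floor, 4 counted upward and 1 downward, with a list median of 1.40. Of 10493 genes tested, 1182 then counted upward and 2700 downward. Il1b was 145 and 361 CPM, a log2 ratio of 1.32 [0.77 to 1.92], and Tnf 26.8 and 120 CPM, a log2 ratio of 2.16 [0.94 to 3.79]. Il6 was at 2.26 [-0.24 to 7.57] from 1 low UMI. Il1a had 0 and 344 UMIs, and its high level was 2.65-fold over the floor of 3 UMIs in the low cells. The lower limit of its log2 ratio was 1.10. Il33 had 0 and 20 UMIs, and no fold is given.

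Among genes that share receptors with GM-CSF, Il3, Il5 and Il5ra had 0 UMIs in C1q macrophage-like cells of both libraries. Il3ra, the IL-3 receptor α chain, was 21.5 and 11.5 CPM there, a log2 ratio of -0.90 [-2.30 to 1.01], and 60.4 and 60.2 CPM in endothelium-like cells. Of the other partners of the ligands or receptors, 0 of 3 tested were past 2-fold with genes at 0 UMIs set to the floor. By that rule, 1182 of 10493 genes tested in this class were past 2-fold upward and 2700 downward. Sdc1, whose syndecan-1 product binds IL-34, had 0 and 126 UMIs, for which no fold is given, and it stood at 140 CPM in metastatic cell-like cells. Adam17, a protease that sheds CSF1R, was at -0.79, and Tyrobp at 0.00.

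In monocyte-like cells the median gene lay at -0.14, and 10.5% of all genes tested were past 2-fold upward and 21.4% downward. Of 13 genes of the CSF1R list, 0 were past 2-fold upward and 5 downward. Lowest were Pik3cd at -3.31 [-8.67 to -0.69] and the kinase gene Fgr at -2.08 [-3.34 to -1.03], and Runx1 lay at 0.24. Of the GM-CSF list, 2 of 7 were past 2-fold upward, Fabp5 at 2.65 and Fabp4 at 1.46, and 3 downward, lowest being Abcg1 with 21 and 0 UMIs and Cd36 at -3.04. Of the G-CSF list, 2 of 7 were past 2-fold downward, Cxcr4 at -3.37 and Cebpb at -2.11, and S100a8 and S100a9 lay at 0.12 and 0.01. Of the other partners, Tyrobp lay at -1.28 and Adam17 at -0.60. Il1b, the only tested inducer, lay at 1.03 [0.77 to 1.29].

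The genes whose levels were most like those of each member were sought over 29 pairs of a class and a library, among 11316 genes. The pairs share 2 libraries of unequal depth, so the Pearson correlations of log2(CPM + 10) are descriptions. Csf1r was closest to Lst1 (0.92), Apobec1, Lilrb4a, Cx3cr1 and Adgre1 (0.87), the last of which encodes the F4/80 antigen of macrophages. Csf2ra was closest to Alox5ap (0.91), Clec12a, Cd68, 5430427O19Rik and Evi2a (0.89), and Csf2rb to Bcl2a1a (0.90), AF251705, Alox5ap, Plek and Nckap1l (0.88). Csf3r was closest to Clec4d (0.86), Cd300lb, Clec4e, Gm5150 and Sirpb1b (0.80). Among the ligands, Csf1 was closest to Timp2 (0.89), Copz2, Gas1, Gstm5 and Crtap (0.86), and Il34, with lower values, to Ccdc107 (0.77), Creb3l1, Oat, Gpc4 and Ano1 (0.72). Csf3 was closest to Etv4 (0.89), Ccdc18, Fosl1, Gm12603 and Rec114 (0.86), of which Etv4, Fosl1 and Gm12603 were gate markers of the metastatic class. Csf2 had too few UMIs. Alox5ap, whose product serves leukotriene synthesis, was the only gene in 2 of these lists, those of both GM-CSF receptor chains.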

How the data were processed

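Lungs of 1 low burden and 1 high burden mouse were measured by 10x single-cell RNA sequencing. Per the labels, the authors made the deposited UMI count matrices with Cell Ranger 2.0.2 on mm10 and named Seurat among their tools. The values are whole-number counts, 14041471 in the low and 52723173 in the high library, and were used as deposited. Cells with 1000 to 7000 genes and at most 10% mitochondrial UMIs were kept, 5506 of all barcodes, close to the total that the study states. Each cell was scored for 23 classes as the mean standardised log count per 10000 UMIs of fixed markers, and was gated where the best score led by at least 0.3 with 3 markers detected. The scoring rule was set after the data were seen, and the members, markers and gene lists were chosen with earlier results of these data known. Of 209 markers, 5 were not used because the gene list did not hold them.

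UMIs were summed per class and library. With 1 mouse per group there was no test and no edgeR or DESeq2 fit, since cells are not replicates. Levels carry exact Poisson intervals, shares exact Clopper-Pearson intervals and ratios exact conditional binomial intervals, all at 95%. PCR duplicates are removed by the UMIs. A ratio counted as past 2-fold with at least 20 UMIs over both libraries. Shares were compared after thinning each cell to 3000 UMIs, which left out 607 low and 0 high cells. Levels were not compared between genes, since tags at the 3′ end are not per length. Scrublet marked 9 low (0.364%) and 7 high (0.231%) cells, too few to have worked, so doublets were kept.

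The genes named were all members in classes of at least 20 cells, the 2 highest and 2 lowest ratios of each pathway list with every relative that shares a receptor, and the 5 genes most like each member. Other pathway genes were named after their values were seen. Some genes that the rule names are not reported here. Upstream sequences came from RefSeq (GRCm38.p6), which gave 4 of the 8 members. Alternatives were classes from Leiden clusters, a stricter gate, no cell filter, no filter on low counts, median-of-ratios scaling, 2000 UMIs, and leaving out marked doublets or the cell with most UMIs. Ratios and intervals were tested on simulated data. Python 3.11.15, numpy 2.4.6, scipy 1.17.1, pandas 2.3.3, scanpy 1.11.5 and matplotlib 3.10.9 were used.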

Additional observations from a re-analysis of the deposited data

How the results depend on the processing

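No paired analysis was possible because each group had 1 library, and no replicate could be left out for the same reason. Of 279 values under alternatives, 235 stayed within their counting interval or 1.5 times a count, 44 moved, and no ratio past 2-fold changed sign. All 58 without the cell filter stayed. Another 62 left out the 9 low and 7 high cells that Scrublet marked, too few to say anything on doublets. With classes from clusters the metastatic share of UMIs was 86.2% for Csf1, 91.1% for Csf3 and 79.0% for Il34, the C1q macrophage share of Csf1r 81.3% and the alveolar macrophage share of Csf2rb 65.4%. With the stricter gate, which leaves more cells ungated, the first 4 were 62.1%, 69.7%, 56.7% and 65.0%. Median-of-ratios scaling gave 68.4 CPM of Csf1 in metastatic cell-like cells, and log2 ratios over all cells of 1.77 for Csf1, 1.10 for Csf1r, 0.12 for Csf2ra, -0.35 for Csf2rb and -0.82 for Csf3r, so that Csf1r passed 2-fold, Csf3r did not and Csf2ra changed sign. Without the cell with most UMIs, Csf3 in metastatic cell-like cells was 16.7 CPM and 79.0% of its UMIs. At 2000 UMIs per cell, both GM-CSF receptor chains were detected in 3.78% of high C1q macrophage-like and 7.28% of low alveolar macrophage-like cells, since fewer UMIs were drawn. Without the filter on low counts, 9440 of 15599 genes (60.5%) were past 2-fold in C1q macrophage-like cells and 9820 of 19350 (50.7%) over all cells. Causes other than these constructions were not tested. Csf2, at 10 and 6 UMIs, and the 3 high alveolar macrophage-like cells were limited by depth.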
